A study of Mus musculus with 12 samples.

Results

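The 31 genes described here encode structural proteins of the sarcomere, the contractile unit of heart muscle. Their symbols were matched to the 55357 gene identifiers of the count table, and all 31 were found. Of these, 30 had enough reads to be tested among 15804 genes; Tnni1, with 3 to 33 counts per library, did not. The data are mRNA sequencing counts of 12 libraries from heart tissue of male mice. There were 3 libraries each of Cd163 knockout mice after transverse aortic constriction (KO TAC), knockout mice after sham surgery (KO sham), wild-type mice after constriction (WT TAC) and wild-type mice after sham surgery (WT sham). All mice were on the C57BL/6J background and 8 weeks old at surgery. For TAC the transverse aorta was tied over a 27-gauge needle, which narrows the vessel and loads the left ventricle, and sham animals went through the operation untied. Cd163, the receptor by which tissue macrophages take up haemoglobin bound to haptoglobin, was deleted in every KO animal, and the labels do not say which part of the gene was removed, which part of the heart was taken or how long after surgery the hearts were collected.

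In a sarcomere, myosin of the thick filament pulls on actin of the thin filament. Calcium bound by the troponin complex moves tropomyosin and lets the myosin heads attach, and the myosin light chains and myosin-binding protein C tune the force. Thin filaments are anchored in the Z-disc by alpha-actinin and its partners, thick filaments are crosslinked at the M-band by myomesins, and titin spans from the Z-disc to the M-band. Chaperones, methyltransferases and kinases such as Unc45b, Smyd1 and Mylk3 assemble or modify myosin. Under pressure overload the heart is known to thicken by adding sarcomeres and to shift between isoforms of some of these proteins.

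Total counts ran from 14150109 to 22602225 per library. Cd163 had 46 to 112 counts in KO libraries and 255 to 592 in WT libraries. A library did not stand with its group: KO sham replicate 1 lay nearer to the mean of KO TAC than to that of the other KO sham libraries for 23 of the 30 tested sarcomere genes (76.7%) and for 12706 of 15804 tested genes (80.4%). Counts of calls that rest on KO sham, and the values of some genes, are therefore given with and without it. WT TAC replicate 1 lay nearer to KO TAC than to the other WT TAC libraries for 17 of the 30 (56.7%) and for 8759 genes (55.4%). The mitochondrial genome supplied 44.0 to 51.3% of KO TAC reads, 51.0% of those of KO sham replicate 1 and 24.8 to 36.9% elsewhere. Cardiomyocyte markers that are not sarcomere genes, 11 such as the calcium pump Atp2a2 and myoglobin (Mb), summed to 6709.8 to 7356 CPM in KO TAC, to 6019.5 CPM in KO sham replicate 1 and to 14736 to 26776 CPM elsewhere. Nuclear long noncoding RNAs, 4 such as Neat1, summed to 4151 to 5500.2 CPM in KO TAC, to 3598 CPM in KO sham replicate 1 and to 1159 to 3481 CPM elsewhere. Neat1 made up most of the KO TAC sums, at 3687.8 to 5038.4 CPM. Meg3 and Kcnq1ot1 were also higher in KO TAC than in WT sham. Malat1 was lower, at 340.2 to 525.2 CPM in KO TAC against 535.2 to 627.1 CPM in WT sham. Skeletal muscle markers summed to 3.48 to 7.98 CPM, with Myh4 at 0 counts in all libraries and Myh1, Myh2 and Tnnc2 at 2 or 3 counts over all 12.

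**Figure D1:**
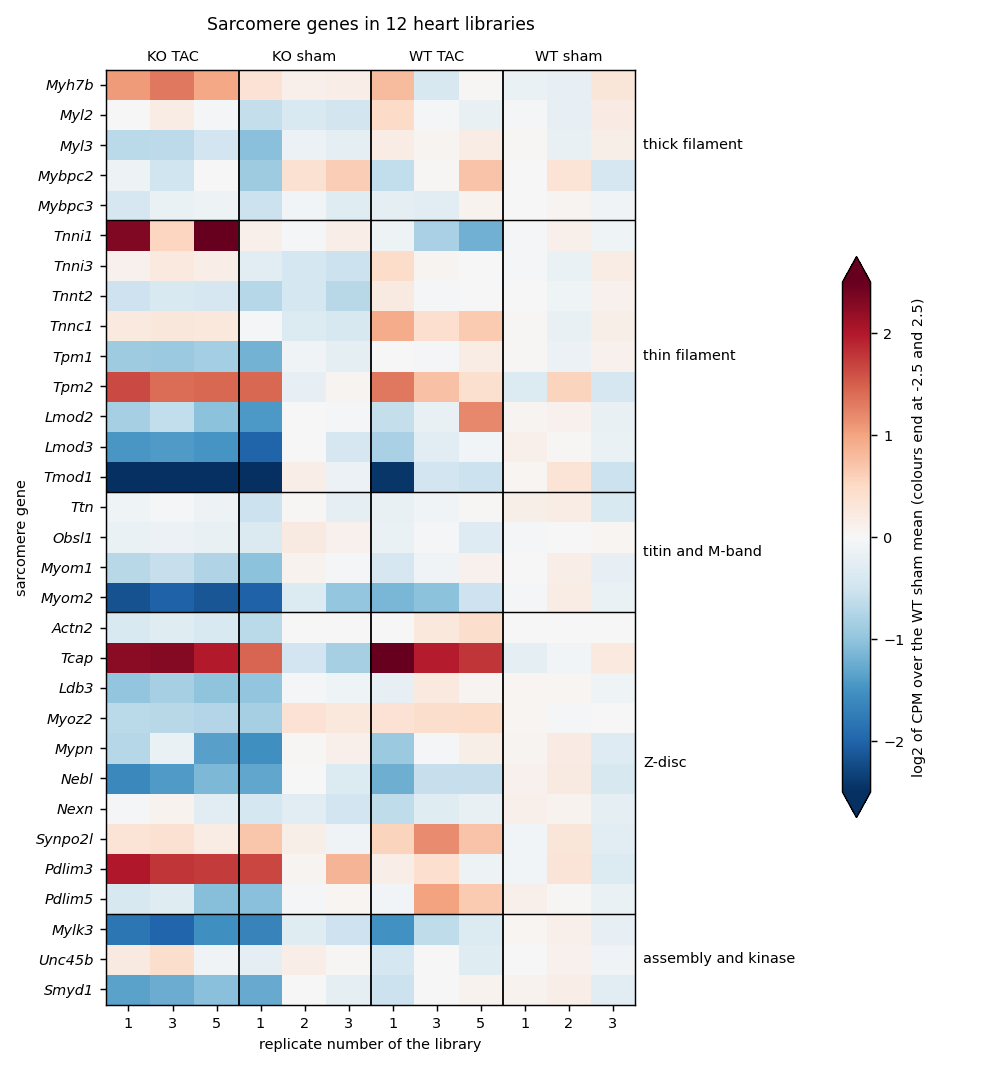
Each cell is the log2 of a gene's CPM (counts scaled to a common library size with TMM factors) in a library over its mean in WT sham, for 31 sarcomere genes in rows grouped by role and 12 libraries in columns; the colours end at -2.5 and 2.5. The column of KO sham replicate 1 looks like the KO TAC columns, Tcap is high in all TAC columns and in KO sham replicate 1, and Tmod1 is low in KO TAC, KO sham replicate 1 and WT TAC replicate 1.

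Levels between genes are compared per kilobase of exon sequence in WT sham. The ventricular regulatory light chain Myl2 was highest, at a mean of 4296 CPM per kb, followed by the ventricular essential light chain Myl3 at 2138, cardiac troponin I (Tnni3) at 1957 and cardiac troponin C (Tnnc1) at 1814 CPM per kb. Alpha-tropomyosin (Tpm1) stood at 1190 and Tcap, the cap of the titin end in the Z-disc, at 436 CPM per kb. The lowest were Pdlim3, a Z-disc protein with PDZ and LIM domains, at 2.57 and Tnni1, the slow skeletal troponin I that the embryonic heart uses, at 0.104 CPM per kb. The 31 genes together took 3.48 to 4.18% of all reads in KO TAC, 2.91% in KO sham replicate 1, 4.43 and 4.71% in the other KO sham libraries, 5.25 to 7.04% in WT TAC and 4.72 to 5.07% in WT sham. With transcripts of the mitochondrial genome left out of the total, the shares were 7.13 to 7.66% in KO TAC, 5.94 to 6.89% in KO sham, 7.66 to 9.36% in WT TAC and 7.28 to 8.04% in WT sham. On that total the KO TAC shares ended where the WT TAC shares began, and they overlapped those of WT sham.

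KO TAC hearts differed from WT TAC hearts in 9 of the 30 tested genes, of which 2 were higher and 7 lower. The higher genes were Pdlim3 and Myh7b, a slow-type myosin heavy chain, and the lower ones included Myoz2, Ldb3 and Pdlim5 of the Z-disc, Myom2 of the M-band, the tropomyosin Tpm1, the light chain Myl3 and the myosin methyltransferase Smyd1. By role, 2 of 5 thick filament genes passed, 1 of 8 tested thin filament genes, 1 of 4 titin and M-band genes, 4 of 10 Z-disc genes and 1 of 3 assembly genes and kinases. Among all 15804 tested genes 8.63% were higher and 11.7% were lower in KO TAC (edgeR's quasi-likelihood test, Benjamini-Hochberg adjusted p under 0.05). The median log2 fold change was −0.52 over the 30 genes and −0.02 over all tested genes, and 23 of the 30 were negative. The libraries of KO TAC lay all above those of WT TAC for 3 of the 30 genes and all below for 16, while 22.7% and 24.3% of all tested genes did so. Of the cardiomyocyte markers above, 8 of 11 were called lower in the same comparison, and their part in the result was not tested; in whole tissue, fewer cardiomyocytes and less RNA per cardiomyocyte cannot be told apart.

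Pdlim3 (ENSMUSG00000031636), which binds alpha-actinin, had 53.1, 45.3 and 44.5 CPM in KO TAC, against 14.8, 17.6 and 12.1 CPM in WT TAC hearts (values of a group stand in the order of its replicate numbers). Its 3 KO TAC values lay above every value of every other group, with 42.1 CPM in KO sham replicate 1 the nearest, 13.9 and 23.8 CPM in the other KO sham libraries, and 12.7, 16.5 and 10.5 CPM in WT sham. The log2 fold change was 1.68 ± 0.33 (SE; edgeR adjusted p = 0.0171). Myh7b (ENSMUSG00000074652) had 321, 382 and 302 CPM in KO TAC and 265, 117 and 157 CPM in WT TAC hearts, and 197, 167 and 174 CPM in KO sham and 138, 134 and 189.9 CPM in WT sham hearts. Its groups did not overlap after TAC, with WT TAC replicate 1 the nearest to KO TAC (log2 fold change 0.90 ± 0.27, edgeR adjusted p = 0.0411).

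Among Z-disc partners of alpha-actinin, 3 were lower. Myoz2 (ENSMUSG00000028116), a calsarcin that ties calcineurin to the Z-disc, had 439.9, 434 and 419 CPM in KO TAC, against 902, 945 and 959.9 CPM in WT TAC hearts. Its replicates were close in both groups, and its WT TAC values also lay above all 3 WT sham values of 721, 674 and 704 CPM (log2 fold change between KO TAC and WT TAC −1.12 ± 0.26, edgeR adjusted p = 0.0232). Ldb3 (ENSMUSG00000021798), also called Cypher or ZASP and mutated in dilated cardiomyopathy in humans, had 408, 458 and 401 CPM in KO TAC, against 700.5, 956 and 851 CPM in WT TAC hearts (−0.99 ± 0.25, edgeR adjusted p = 0.0255). Pdlim5 (ENSMUSG00000028273), a relative of Ldb3 that brings protein kinases to the Z-disc, had 408, 436 and 257 CPM in KO TAC, against 513, 1083 and 846 CPM in WT TAC hearts. Its groups did not overlap, and the spread within each was wide (−1.15 ± 0.34, edgeR adjusted p = 0.038).

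**Figure D2:**
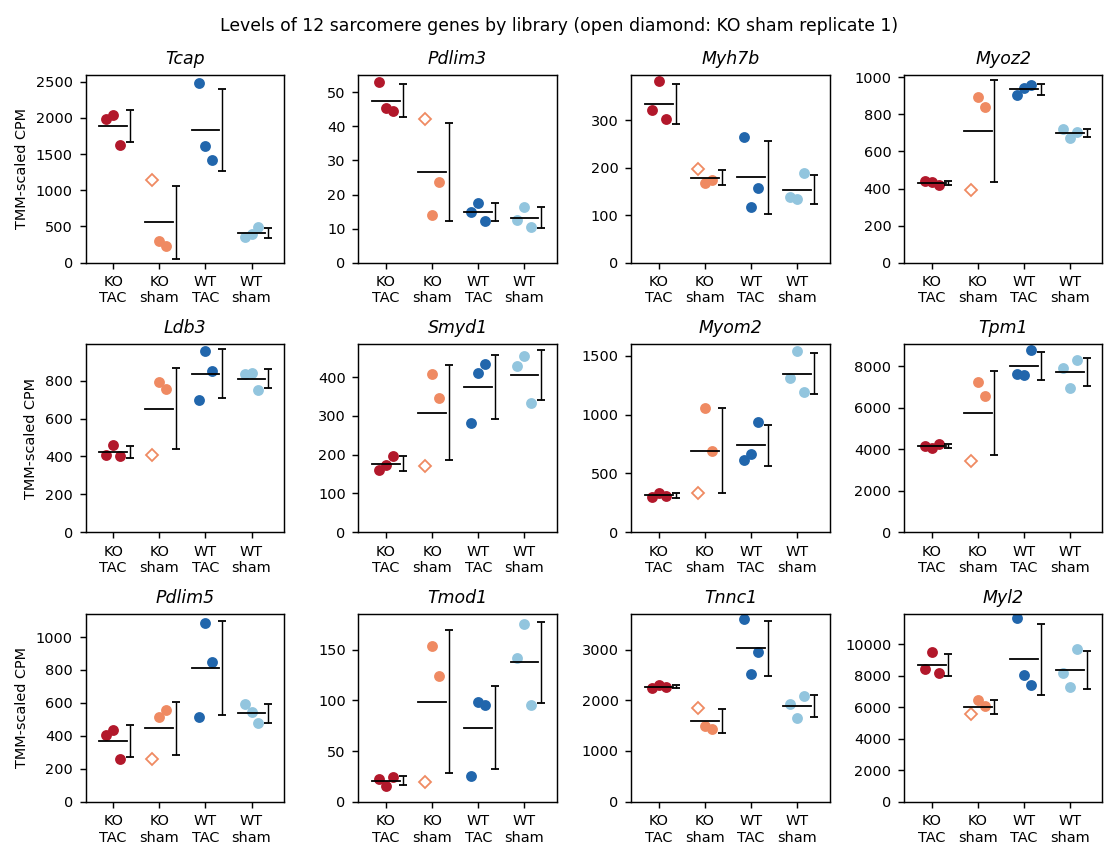
Points are the TMM-scaled CPM of 12 sarcomere genes in each of the 12 libraries, by group, with a line at the group mean and a bar for ± 1 SD (n = 3); the open diamond is KO sham replicate 1. Pdlim3 and Myh7b are highest in KO TAC, Tcap is high in both TAC groups, and for Myoz2, Ldb3, Smyd1, Myom2 and Tpm1 the diamond lies beside the KO TAC points.

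Beyond the Z-disc, Myom2 (ENSMUSG00000031461), the M-band myomesin of fast fibres and of the adult heart, had 296, 332 and 308 CPM in KO TAC, against 610.2, 663 and 939.6 CPM in WT TAC hearts, a log2 fold change of −1.24 ± 0.34 (edgeR adjusted p = 0.0325). Smyd1 (ENSMUSG00000055027) had 159.6, 172 and 198 CPM in KO TAC, against 282, 411 and 433 CPM in WT TAC hearts (−1.09 ± 0.30, edgeR adjusted p = 0.0318). Tpm1 (ENSMUSG00000032366) had 4170.5, 4074 and 4266 CPM in KO TAC, against 7636, 7576 and 8795 CPM in WT TAC hearts (−0.94 ± 0.26, edgeR adjusted p = 0.0333). In these 3 genes each KO TAC library lay below each WT TAC library. Myl3 (ENSMUSG00000059741) had 2741, 2792 and 3117 CPM in KO TAC, against 4957, 4589 and 4967 CPM in WT TAC hearts (−0.75 ± 0.24, edgeR adjusted p = 0.048).

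The other abundant genes of the filaments did not pass after TAC. Myl2, the partner of Myl3 on the myosin neck, stood at a log2 fold change of −0.06 ± 0.23 (edgeR adjusted p = 0.871), with 8403, 9512 and 8174 CPM in KO TAC and 11648, 8064 and 7394 CPM in WT TAC hearts. Tnni3 stood at −0.01 ± 0.20, titin (Ttn) at −0.02 ± 0.22, the myosin-binding protein Mybpc3 at −0.10 ± 0.20 and Tcap at 0.04 ± 0.49, with overlapping groups in all 4. The thin filament length regulators lay lower without passing: Lmod2, which elongates thin filaments, at −1.17 ± 0.45 (edgeR adjusted p = 0.0776; −0.44 and 0.424 without WT TAC replicate 5), its relative Lmod3 at −1.10 ± 0.38 (0.0557) and Tmod1, which caps their pointed ends, at −1.81 ± 0.64 (0.0626). For Tmod1, 32.6% of its exon bases are shared with Tstd2 on the opposite strand, which had 1769 counts in all against 20094 for Tmod1; without knowledge of strand use the reads of such a pair cannot be told apart. Alpha-actinin 2 (Actn2) stood at −0.60 ± 0.21 (edgeR adjusted p = 0.0636) and the cardiac myosin light chain kinase Mylk3 at −1.01 ± 0.35 (0.0601), and the myosin chaperone Unc45b stood at 0.45 ± 0.19 (0.0999).

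The remaining tested genes did not pass either. Among thin filament genes, Tnnt2 stood at a log2 fold change of −0.51 ± 0.19 between KO TAC and WT TAC (edgeR adjusted p = 0.072), with 5282, 5821 and 5704 CPM in KO TAC and 8875, 7459.8 and 7580.0 CPM in WT TAC hearts, and Tnnc1 stood at −0.41 ± 0.20 (0.146). Both had each KO TAC library below each WT TAC library. The beta-tropomyosin Tpm2 stood at 0.62 ± 0.40 (edgeR adjusted p = 0.261), with 65.8, 55.4 and 56.7 CPM in KO TAC, all above the 52.9, 35.0 and 27.9 CPM in WT TAC hearts. Of the M-band, Myom1 stood at −0.56 ± 0.27 (edgeR adjusted p = 0.144) and its partner Obsl1 at 0.00 ± 0.16 (0.991). Of the Z-disc, Synpo2l stood at −0.53 ± 0.24 (edgeR adjusted p = 0.117), Nebl at −0.61 ± 0.31 (0.161), the alpha-actinin and nebulin binder Mypn at −0.46 ± 0.42 (0.424) and Nexn at 0.28 ± 0.19 (0.289). Mypn ran from 43.2 to 97.7 CPM in KO TAC and from 57.5 to 122 CPM in WT TAC hearts, with overlap. Mybpc2, the myosin-binding protein C of fast skeletal muscle, stood at −0.33 ± 0.38 (edgeR adjusted p = 0.532), with 16.6 to 23.4 CPM in KO TAC and 15.2 to 38.2 CPM in WT TAC hearts, and at 0.06 without WT TAC replicate 5. In Lmod2, WT TAC replicate 5 stood above the other libraries of both groups, with 262, 305 and 229 CPM in KO TAC and 309.7, 407 and 1076 CPM in WT TAC hearts.

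**Figure D3:**
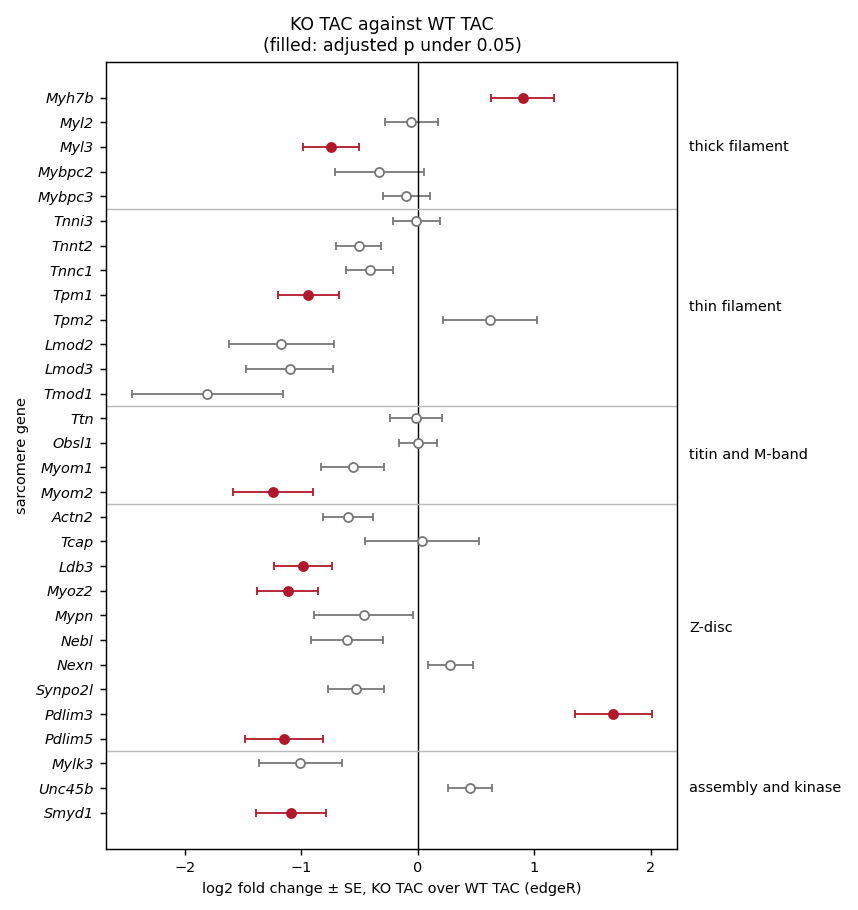
Points are edgeR log2 fold changes of KO TAC over WT TAC for the 30 tested sarcomere genes, grouped by role. Bars are ± 1 SE, derived from the F statistic of the test. Filled points have an adjusted p under 0.05. Most points lie left of 0, with Pdlim3 at 1.68 and Myh7b at 0.90 the filled exceptions.

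These calls were sensitive to single libraries. Without WT TAC replicate 3 or 5, or KO TAC replicate 1, edgeR called 0 of the sarcomere genes. In these fits it called 0.523%, 1.02% and 0.357% of all tested genes. Without KO TAC replicate 3 the only call was Tnni1 (0.265% of all tested genes), and without KO TAC replicate 5 it was Pdlim3 (2.7%). All tested genes thus lost most of their calls too, from 20.4% with all libraries. Tnni1 was tested in several of the alternative fits. Without KO TAC replicate 3, and without KO sham replicate 1, it entered through its counts in KO TAC, the group where it is high. These were 27, 7 and 33, with at most 9 in any other library. Without KO sham replicate 1, which is in neither group but enters the spread shared by the fit, 21 of 31 passed, 4 higher and 17 lower, while 18.5% of 16196 genes were called higher and 22.1% lower. Without WT sham replicate 1, also in neither group, only Pdlim3, Myoz2, Ldb3 and Tnni1 were called (10.6% of all tested genes). With library totals in place of TMM scaling the median of all tested genes moved to −0.23, 515 genes were called higher and 3010 lower against 1364 and 1855, and 5 of the 30 sarcomere genes were positive and 25 negative; Tcap at −0.23 and Obsl1 at −0.22 then changed sign, and Myh7b did not pass (edgeR adjusted p = 0.152).

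The promoters of 4 of the genes called after TAC are shown, chosen by p. Pdlim3 was the higher gene with the smallest p. Myoz2, Smyd1 and Tpm1 were the lower genes with the smallest p among those with a single promoter in the table. Each runs from 250 bases before to 50 bases after the start that RefSeq gives on GRCm38.p6, 5′ to 3′ on the gene's strand, at chr8:45885237-45885536 (plus strand) for Pdlim3, chr3:123034938-123035237 (minus) for Myoz2, chr6:71262232-71262531 (minus) for Smyd1 and chr9:67049164-67049463 (minus) for Tpm1. The Smyd1 window lies inside the gene as GENCODE M21 places it, at chr6:71213940-71322233. Most of the Tpm1 window also lies inside its gene, whose start GENCODE M21 places at 67049406. The 2 sources thus differ on the starts of both genes, and by less on those of Pdlim3 and Myoz2. Capitals mark matches, on either strand, to CATTCC (the MCAT element known to bind TEAD factors), to TATAAA, to the CArG box of serum response factor or to the MEF2 site; in the printed strand, a match on the other strand reads GGAATG for the first and TTTATA for the second.
Pdlim3: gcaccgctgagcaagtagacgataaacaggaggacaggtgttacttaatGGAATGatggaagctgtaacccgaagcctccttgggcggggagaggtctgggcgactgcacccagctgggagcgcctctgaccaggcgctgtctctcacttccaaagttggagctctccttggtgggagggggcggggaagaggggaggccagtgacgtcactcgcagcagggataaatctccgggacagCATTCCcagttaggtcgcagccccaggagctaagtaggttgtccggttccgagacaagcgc
Myoz2: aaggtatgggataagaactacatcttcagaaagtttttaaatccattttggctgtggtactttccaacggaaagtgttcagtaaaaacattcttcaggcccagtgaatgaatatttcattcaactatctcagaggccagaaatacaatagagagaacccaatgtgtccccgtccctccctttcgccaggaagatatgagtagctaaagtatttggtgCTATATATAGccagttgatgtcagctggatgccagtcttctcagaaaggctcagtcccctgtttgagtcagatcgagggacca
Smyd1: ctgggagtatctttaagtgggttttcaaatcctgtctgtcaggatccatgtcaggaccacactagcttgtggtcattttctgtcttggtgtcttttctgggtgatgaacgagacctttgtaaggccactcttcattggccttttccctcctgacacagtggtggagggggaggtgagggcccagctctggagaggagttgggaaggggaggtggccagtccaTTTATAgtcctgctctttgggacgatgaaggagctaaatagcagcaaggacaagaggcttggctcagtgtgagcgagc
Tpm1: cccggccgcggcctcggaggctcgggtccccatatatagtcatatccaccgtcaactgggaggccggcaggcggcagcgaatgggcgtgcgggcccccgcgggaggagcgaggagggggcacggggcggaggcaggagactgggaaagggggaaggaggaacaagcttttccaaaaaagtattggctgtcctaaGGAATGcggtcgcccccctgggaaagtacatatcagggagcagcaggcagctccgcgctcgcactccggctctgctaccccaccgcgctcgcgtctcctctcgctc

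The Pdlim3 window holds CATTCC on each strand, and the Tpm1 window holds it as well. The Myoz2 window holds a MEF2 site and the Smyd1 window holds TATAAA. Promoters were found for 27 of the 31 genes, and Nexn, Tcap, Myom2 and Lmod3 had none in the table. CATTCC was present in 11 of the 27 (40.7%), counting a gene once over its promoters, and in 16.6% of 27025 genes. The CArG box was present in 4 of the 27 (14.8%) and in 1.8% of all genes, the MEF2 site in 4 (14.8%) and in 3.7%, and TATAAA in 4 (14.8%) and in 15.7%. A match is only a run of letters in these windows, and binding was not measured.

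In WT hearts, the largest log2 fold change between TAC and sham among the 30 tested sarcomere genes was that of Tcap, though none of the 30 passed with all libraries. Tcap (ENSMUSG00000007877) had 2478, 1606 and 1424 CPM in WT TAC, against 355, 396 and 491 CPM in WT sham hearts. The lowest WT TAC value was above the highest WT sham value by more than the range within WT sham (log2 fold change 2.15 ± 0.51, edgeR adjusted p = 0.124). Synpo2l, a Z-disc protein of the synaptopodin family, had 164, 252 and 182 CPM in WT TAC and 106, 137 and 92.1 CPM in WT sham hearts (0.83 ± 0.24, edgeR adjusted p = 0.18). Tnnc1 had 3599, 2518 and 2958 CPM in WT TAC and 1921, 1654 and 2088 CPM in WT sham hearts (0.68 ± 0.20, edgeR adjusted p = 0.19). All WT TAC libraries were above all WT sham libraries for both genes. That held for 4 of the 30 tested sarcomere genes and for 13.4% of all tested genes.

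Lower values in WT TAC were seen for Myom2, Nebl and Mylk3, none of which passed with all libraries. Myom2 had 610.2, 663 and 939.6 CPM in WT TAC, against 1309, 1538 and 1194 CPM in WT sham hearts (log2 fold change −0.87 ± 0.34, edgeR adjusted p = 0.254). Nebl, the cardiac member of the nebulin family, had 116, 182 and 183 CPM in WT TAC and 293, 316 and 207 CPM in WT sham hearts (−0.76 ± 0.31, edgeR adjusted p = 0.267). Mylk3 had 193, 354 and 435 CPM in WT TAC and 572, 605 and 480.2 CPM in WT sham hearts (−0.76 ± 0.35, edgeR adjusted p = 0.315). The groups did not overlap for these 3 genes, the only ones of the 30 with all WT TAC libraries below all WT sham libraries. Among all tested genes 13.7% were so placed. Over the comparison, edgeR called 0 of the 30 and 0.0316% of all tested genes, while 5 of the 30 had an unadjusted p under 0.05, as did 16.2% of all tested genes, a share close to that of the sarcomere genes. DESeq2 called 3 sarcomere genes and 2.93% of all genes, and limma-voom with sample weights called 4 and 6.52% of all genes. Without KO sham replicate 1, 3 of 31 rose and 1 fell. Tcap rose by 2.15 (edgeR adjusted p = 0.000481), Synpo2l by 0.83 (0.0273) and Tnnc1 by 0.68 (0.0293), and Myom2 fell by 0.87 (0.0294). In that fit 3.4% of all genes rose and 3.14% fell.

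In KO hearts the comparison of TAC with sham turned on KO sham replicate 1. With all libraries edgeR called 0 of the 30 sarcomere genes and 0% of all genes, with 14 of the 30 and 4878 of all genes (30.9%) at an unadjusted p under 0.05. DESeq2 called 10 sarcomere genes and 11.6% of all genes. With sample weights, limma-voom called 25 sarcomere genes and 63.2% of all genes. Without that library 7 of 31 rose and 12 fell, while 22.4% of all genes rose and 25.2% fell. The thin filament gave 4 of the 7 that rose, Tnni1 among them, and 3 of the 12 that fell. The Z-disc gave 2 that rose and 3 that fell, and the titin and M-band group 0 and 3. The median log2 fold change over the sarcomere genes was −0.17 with all libraries and −0.36 without KO sham replicate 1.

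Tcap had 1982, 2038 and 1631 CPM in KO TAC, against 1139.7, 297 and 232 CPM in KO sham hearts. KO sham replicate 1 lay between the groups, and the log2 fold change was 1.76 ± 0.50 with it (edgeR adjusted p = 0.103) and 2.83 ± 0.27 without it (5.18e-05). Tmod1 had 22.8, 15.5 and 24.3 CPM in KO TAC, against 19.4, 153 and 124 CPM in KO sham hearts. Here KO sham replicate 1 lay within the KO TAC range, and the log2 fold change was −2.24 ± 0.65 with it (edgeR adjusted p = 0.103) and −2.74 ± 0.46 without it (0.00104). Tmod1 had 25.6, 98.1 and 95.2 CPM in WT TAC and 142, 175 and 95.3 CPM in WT sham hearts, so WT TAC replicate 1 was close to the KO TAC libraries. Myom2 had 296, 332 and 308 CPM in KO TAC, against 333, 1058 and 689 CPM in KO sham hearts (−1.15 ± 0.34, edgeR adjusted p = 0.103; −1.49 ± 0.22, adjusted p = 0.000377 without KO sham replicate 1).

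Mylk3, the kinase that phosphorylates Myl2, had 157, 141 and 190.2 CPM in KO TAC, against 172, 448 and 388 CPM in KO sham hearts (log2 fold change −1.05 ± 0.35, edgeR adjusted p = 0.108). Nebl had 88.7, 102 and 125 CPM in KO TAC, against 111, 269.6 and 214 CPM in KO sham hearts (−0.91 ± 0.31, edgeR adjusted p = 0.108). In both genes KO sham replicate 1 lay within the KO TAC range, and without it Mylk3 fell by 1.37 (edgeR adjusted p = 0.00162) and Nebl by 1.21 (0.00166). Myh7b stood at 0.90 ± 0.27 with all libraries (edgeR adjusted p = 0.103) and at 0.97 ± 0.29 without KO sham replicate 1 (0.0148). Other genes that rose without that library were Tpm2 by 1.54, Tnni1 by 1.94, Pdlim3 by 1.33, Tnni3 by 0.66 and Tnnc1 by 0.63. Tnni1 entered that fit through its counts in KO TAC, so its rise is no separate support. Others that fell were Lmod3 by 1.27, Smyd1 by 1.10, Myoz2 by 1.02, Ldb3 by 0.88, Tpm1 by 0.73, Myom1 by 0.70, Myl3 by 0.41 and Obsl1, a giant M-band partner of titin and myomesin, by 0.34.

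Between the sham groups no sarcomere gene passed in edgeR, with or without KO sham replicate 1. With all libraries edgeR called 0 of 30 and 0.00633% of all genes, and 3 of the 30 and 13.5% of all genes had an unadjusted p under 0.05. DESeq2 called 1 sarcomere gene and 1.2% of all genes, and limma-voom with sample weights called 9 and 14.9% of all genes. Without KO sham replicate 1 edgeR called 0 of 31 and 0.241% of all genes, with 5 of the 31 and 9.63% of all genes at an unadjusted p under 0.05. Cardiac troponin T (Tnnt2), which holds the troponin complex to tropomyosin, had 4633, 5633 and 4695 CPM in KO sham and 7535, 7011 and 8231 CPM in WT sham hearts (log2 fold change −0.61 ± 0.19, edgeR adjusted p = 0.278). Myl2 had 5571, 6472 and 6058 CPM in KO sham and 8168, 7275 and 9691 CPM in WT sham hearts (−0.47 ± 0.23, edgeR adjusted p = 0.379). For both genes all KO sham libraries were below all WT sham libraries, replicate 1 among them. That held for 6 of the 30 tested genes and for 10.4% of all tested genes. All KO sham libraries were above for 0 of the 30 and for 12.2% of all. Nexn, an actin-binding protein of the Z-disc, had 492, 545 and 476 CPM in KO sham and 726, 702 and 565 CPM in WT sham hearts (−0.40 ± 0.19, edgeR adjusted p = 0.384). Myom2 stood at −0.96 ± 0.34 (edgeR adjusted p = 0.303), Mylk3 at −0.72 ± 0.35 (0.386) and Pdlim3 at 1.00 ± 0.33 (0.28). Without KO sham replicate 1, Pdlim3 was at 0.51 ± 0.24 and Myl2 at −0.42 ± 0.21. The lowest value of the titin and M-band group was then −0.62, and that of the assembly genes and kinases −0.40. The median over the sarcomere genes was −0.29 with all libraries, with 8 positive and 22 negative. It was −0.06 without that library, with 12 positive and 19 negative.

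The interaction asks whether the TAC response in KO differed from that in WT. With all libraries edgeR called 0 of the 30 sarcomere genes and 0% of all genes, with 3 of the 30 and 1452 of all genes (9.19%) at an unadjusted p under 0.05. DESeq2 called 0 sarcomere genes and 0.472% of all genes. With sample weights, limma-voom called 16 sarcomere genes and 32% of all genes. The smallest p belonged to Myoz2, which stood at −1.14 ± 0.37 (edgeR adjusted p = 0.449). Its log2 fold change was −0.72 ± 0.26 between KO TAC and KO sham and 0.42 ± 0.26 between WT TAC and WT sham. The next were Nexn at 0.68 ± 0.27 (edgeR adjusted p = 0.522), Synpo2l at −0.82 ± 0.34 (0.53), Ldb3 at −0.67 ± 0.35 (0.578), Pdlim5 at −0.87 ± 0.47 (0.588) and Myh7b at 0.68 ± 0.38 (0.593).

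Without KO sham replicate 1 the interaction passed for 7 of 31 sarcomere genes, 2 higher and 5 lower, while 4.66% of all genes were higher and 7.45% lower. The lower ones were Myoz2 at −1.43 ± 0.18 (edgeR adjusted p = 0.00179), Smyd1 at −0.99 ± 0.27 (0.0372), Ldb3 at −0.92 ± 0.21 (0.0195), Lmod3 at −0.92 ± 0.27 (0.0426) and Tpm1 at −0.78 ± 0.20 (0.0293). The higher ones were Pdlim3 at 1.17 ± 0.32 (edgeR adjusted p = 0.0372) and Tnni1 at 2.56 ± 0.78 (0.0498). Tnni1 passed the read filter of that fit through KO TAC, the group where it is high. Its counts there were 27, 7 and 33, and at most 9 in any other library, so its call is no separate support. Tcap, which stood high after TAC in both genotypes, had an interaction of 0.68 ± 0.32 in that fit (edgeR adjusted p = 0.172) and of −0.39 ± 0.69 with all libraries (0.866). That fit rests on 2 KO sham libraries, and its choice followed from how KO sham replicate 1 looked in these data.

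**Figure D4:**
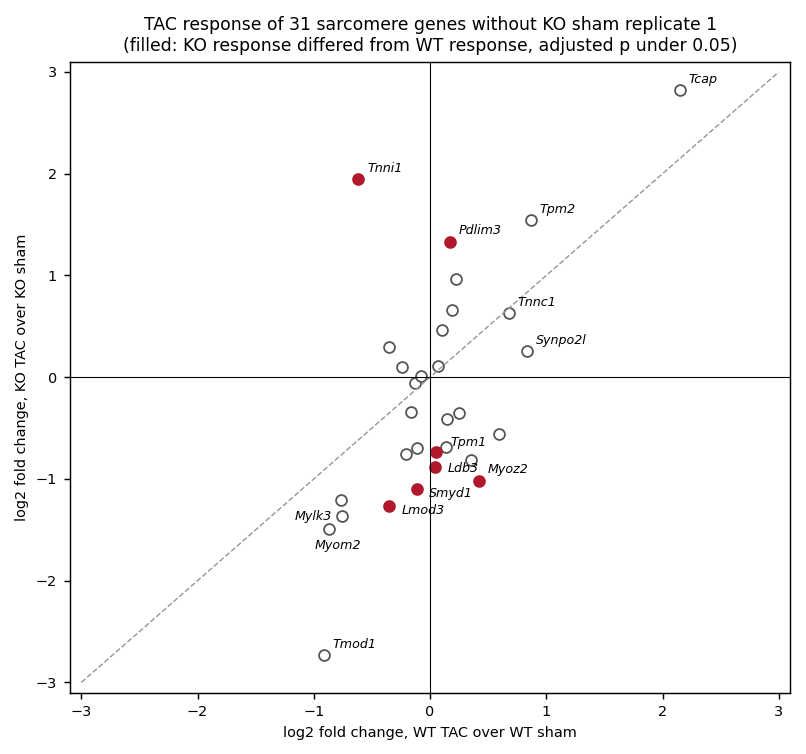
Each point is a sarcomere gene, with its log2 fold change of KO TAC over KO sham on the y axis and of WT TAC over WT sham on the x axis, both without KO sham replicate 1 (edgeR); filled points are the 7 genes with an interaction at an adjusted p under 0.05, and the dashed line marks equal responses. Tcap lies at 2.83 and 2.15, near the line, while Myoz2 lies at −1.02 in KO and 0.42 in WT. Tnni1, among the filled points, entered that fit through its counts in KO TAC.

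Ratios between related genes were taken within each library, so that scaling between libraries does not enter. The ratio of Myom2 to Myom1, the myomesin of all striated muscle, was lower in KO TAC than in WT TAC and lower in WT TAC than in WT sham. Its log2 value was −1.40, −1.34 and −1.28 in KO TAC, −0.89, −0.35 and −0.82 in KO sham, −0.63, −0.85 and −0.54 in WT TAC, and 0.03, 0.12 and 0.13 in WT sham hearts. KO TAC lay below the other groups, WT sham above them, and KO sham and WT TAC overlapped. The mean differences were −0.67 between KO TAC and WT TAC, −0.77 between WT TAC and WT sham, −0.66 between KO TAC and KO sham and −0.78 between KO sham and WT sham. Each had an exact permutation p of 0.1 (two-sided), the smallest that 3 against 3 libraries allow, and 0.25 after adjustment over the 20 ratio comparisons made, so none passed.

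The log2 ratio of Tpm2 to Tpm1 was −5.98, −6.20 and −6.23 in KO TAC, against −7.17, −7.76 and −8.30 in WT TAC hearts. It was −5.90 in KO sham replicate 1, −8.62 and −8.21 in the other KO sham libraries, and −8.89, −7.81 and −9.04 in WT sham hearts. Tpm2 was 0.189 to 1.64% of the summed counts of Tpm1 and Tpm2 over the 12 libraries. Reads of Tnni1 numbered 27, 7 and 33 in KO TAC, 6, 9 and 9 in KO sham, 7, 4 and 3 in WT TAC, and 7, 9 and 7 in WT sham hearts, beside 48755 to 113100 counts of Tnni3. The log2 ratio of Tnni1 to Tnni3 was higher in each KO TAC library than in each WT TAC library, and KO TAC replicate 3 was at the KO sham level. The skeletal Mybpc2 stayed at 0.617 to 1.48% of the summed counts of Mybpc2 and Mybpc3, and its groups overlapped in all 4 comparisons. In 8 of the 20 ratio comparisons the groups did not overlap, all at the same exact permutation p of 0.1 and 0.25 after adjustment.

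**Figure D5:**
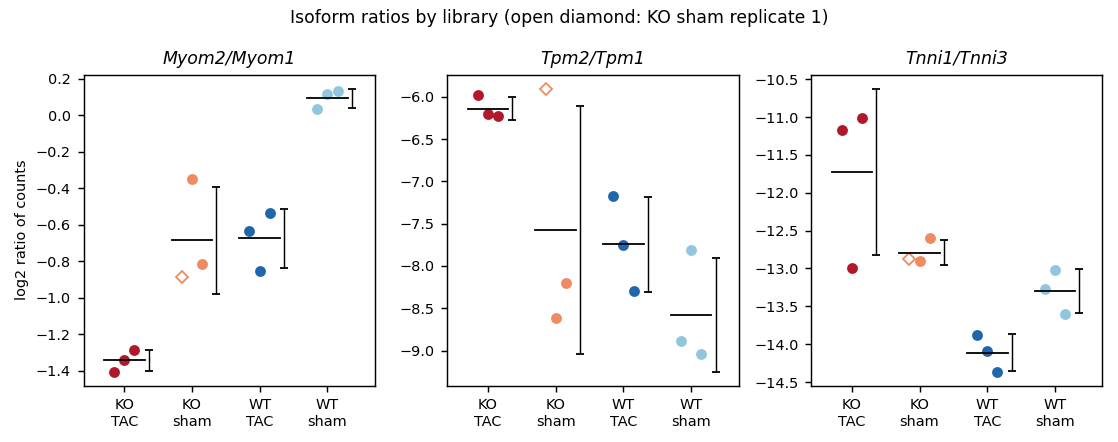
Points are log2 ratios of read counts within a library for 3 pairs of sarcomere genes, by group, with a line at the mean and a bar for ± 1 SD (n = 3); the open diamond is KO sham replicate 1. Myom2/Myom1 is lowest in KO TAC and highest in WT sham, and the diamond lies beside KO TAC for Tpm2/Tpm1.

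Other sarcomere genes were taken from a list of 40, of which 38 were tested. In WT TAC against WT sham 1 of 38 passed, the skeletal alpha-actin Acta1, which rose by 3.27 ± 0.42 (edgeR adjusted p = 0.0194), with 1451, 1256 and 2557 CPM in WT TAC and 226, 203 and 117 CPM in WT sham hearts. Leaving out any 1 WT sham library ended this call (edgeR adjusted p = 0.149 to 0.253), as did leaving out KO TAC replicate 1 (0.0552), KO TAC replicate 3 (0.0613) or WT TAC replicate 5 (0.0542), and so did a replicate block (0.271). Over all tested genes edgeR called 0.0316% in this comparison. In KO TAC against WT TAC, 3 were higher and 10 lower, against 8.63% and 11.7% of all tested genes. Those with the smallest p were lower: the small heat shock protein Hspb7 at −1.86 ± 0.29 (edgeR adjusted p = 0.0116), the intermediate filament desmin (Des) at −1.21 ± 0.22 (0.0164), the ubiquitin ligase Trim54 at −1.48 ± 0.27 (0.0165) and the Z-disc protein Csrp3 at −0.94 ± 0.19 (0.0176). Without KO TAC replicate 1 or 3 edgeR called 0 of the 38 (0.357% and 0.265% of all genes). Without WT TAC replicate 3 it called only Hspb7 (0.523%), and without WT TAC replicate 5 Csrp3 and Hspb7 (1.02%). Without KO TAC replicate 5 it called Des, Hspb7, Myl7 and Trim54 (2.7%). Without KO sham replicate 1 it called 5 higher and 19 lower, against 18.5% and 22.1% of all genes. The 3 higher genes were Myl7, Myl4 and Mybphl, which atrial muscle expresses. Atrial markers, a list of 6 that includes Myl7 and Myl4, summed to 678 to 2450 CPM in KO TAC, 3071 CPM in KO sham replicate 1 and 284 and 428 CPM in the other KO sham libraries. The sums were 253 to 551 CPM in WT TAC and 88.4 to 1815 CPM in WT sham. In WT TAC nearly all of the sum was Nppa, at 241 to 542.5 CPM, against 320 to 840 CPM in KO TAC. Myl7 had 0.38 to 3.06 CPM in WT TAC and 135.5 to 646 CPM in KO TAC. For Myl4, Sln, Bmp10 and Dkk3 each KO TAC library was also above each WT TAC library. The part of atrial markers in these values was not tested. For the other comparisons edgeR called 0 of the 38, with 11 of 38 at an unadjusted p under 0.05 between KO TAC and KO sham, 8 between KO sham and WT sham and 14 for the interaction, beside 30.9%, 13.5% and 9.19% of all genes. Without KO sham replicate 1 it called 20 of 38 between KO TAC and KO sham, 1 between KO sham and WT sham and 14 for the interaction, beside 47.6%, 0.241% and 12.1% of all genes.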

How the data were processed

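The authors deposited a table of whole-number read counts per Ensembl gene identifier for 12 libraries, not normalized. Per the labels' protocols, mRNA was selected with oligo(dT) from total RNA of heart tissue and read as 150 bp pairs; HISAT2 is named in the submitters' processing notes. For the counting program, genome build, annotation and strand use, the sources used here give nothing. Symbols, exon lengths and overlaps came from GENCODE M21 (GRCm38), which may not be the authors' build; 52081 of 55357 identifiers matched.

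The test was that of edgeR 4.0.16, run in R 4.3.3: filterByExpr by group, TMM scaling, and a robust quasi-likelihood fit with a coefficient per group over 12 libraries (8 residual degrees of freedom). P-values were adjusted by Benjamini-Hochberg over all tested genes at a threshold of 0.05, in 5 comparisons. The SE of a log2 fold change was derived, as its absolute value over the square root of the quasi-likelihood F statistic. CPM are scaled by TMM. The procedure was tested on simulated counts. The labels give each library as its own sample and name no animals, so p-values measure the spread of these libraries, which may be technical. Among pairs of libraries of the same group, none agreed within counting noise, and the closest differed by 2.11 times the Poisson variance. Pairs across groups, such as KO sham replicate 1 with KO TAC libraries, were not compared in this way. Total counts per library, 14150109 to 22602225, bound the precision for low genes such as Tnni1.

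The genes and lists were chosen with earlier results of these data known. Values in every library are given for up to 6 sarcomere genes with the smallest p in each comparison, and of the 40 other sarcomere genes up to 4 per comparison are named, of which some are left out; other genes are named for their role. Alternatives were DESeq2 1.42.0, limma-voom (limma 3.58.1), other scalings, no low-count filter, the compared groups alone, a replicate block, and each library left out. The limma-voom fit was run with sample weights throughout, so libraries did not count equally in it. Promoter windows came from RefSeq GRCm38.p6.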

Additional observations from a re-analysis of the deposited data

How the results depend on the processing

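None of the 9 sarcomere genes called for KO TAC against WT TAC changed sign under the alternatives run, and the counts moved as follows. For KO TAC against WT TAC, 9 genes passed with all libraries (20.4% of all genes), 16 in DESeq2 (24.9%) and 20 in limma-voom with sample weights (48.4%). With library totals 15 passed (22.3%), with only the compared groups 15 (30.2%) and with the replicate block 5 (15.3%). With KO sham replicate 1 and WT TAC replicate 1 both left out, 20 passed (53.8%). Percentages here are the share of all tested genes called in the same fit. With single libraries left out this count ran from 0 to 21, and the share of all genes from 0.265% to 40.7%. For KO TAC against KO sham, 0 passed with all libraries, 10 in DESeq2 (11.6%), 25 in limma-voom (63.2%), 4 without the low-count filter (2.14%) and 23 with both libraries left out (55.5%), and the range over single libraries left out was 0 to 19 (0 to 47.6%). For WT TAC against WT sham, 0 passed with all libraries, 3 in DESeq2 (2.93%), 4 in limma-voom (6.52%), 1 with only the compared groups (0.597%) and 6 with both left out (6.18%), and the range was 0 to 4 (0.00617 to 6.53%). For KO sham against WT sham, 0 passed with all libraries, 1 in DESeq2 (1.2%), 9 in limma-voom (14.9%) and 1 with both left out (1.84%). For the interaction, 0 passed with all libraries, 16 in limma-voom (32%) and 21 with both left out (36.1%), and the range was 0 to 7 (0 to 12.1%). The median of the interaction over the sarcomere genes was −0.29 with all libraries, −0.62 with library totals and −0.63 with both left out, and ran from −0.55 to −0.082 over single libraries left out. The cause of these moves was not tested, beyond the fewer libraries in the fits that leave some out. The labels do not say whether replicate numbers pair the samples. Deviations of same-numbered libraries from their group means correlated at −0.194 to 0.060. With means of only 3 libraries these correlations cannot decide whether a number marks an animal or a batch. The block took the count for KO TAC against WT TAC from 9 to 5, and the other 4 counts were 0 with and without it. The number of ratio comparisons without overlap was 8 with all libraries and ran from 8 to 12 under the alternatives. Depth limits Tnni1, whose 3 to 33 counts per library left it untested in the main fit. It was called higher in KO TAC than in WT TAC in DESeq2 (DESeq2 adjusted p = 0.000747) and without the low-count filter (edgeR adjusted p = 0.0014). It is therefore counted among the 16 genes of DESeq2. With both libraries left out it is counted for KO TAC against WT TAC, KO TAC against KO sham and the interaction. These calls rest on 27, 7 and 33 counts in KO TAC and are no separate support.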
